A study of Mus musculus with 12 samples.

Results

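Macrophage marker genes were followed in RNA of the mouse pylorus, the outlet of the stomach, as 9 genes chosen by symbol: Cd68, Csf1r, Msr1, Fcgr1, Mrc1, Cd163, C1qa, C1qb and C1qc. All 9 were found among the 23420 gene symbols counted, and all 9 passed the filter on low counts with 15369 genes in total. The libraries came from whole pyloric tissue, not from sorted cells, of C57BL/6 mice that were either wild-type or CEA424-SV40 T Ag transgenic. The transgenic mice carry the large T antigen of simian virus 40 under a carcinoembryonic antigen promoter and are used as a model of spontaneous gastric cancer. The 4 groups, both genotypes at day 60 (D60) and at day 80 (D80), had 3 libraries each, and no treatment is named. The labels do not say that the libraries of a group came from separate animals, so p-values measure the spread between libraries, which may be technical.

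Macrophages are phagocytes of the tissue that engulf dead cells, particles and microbes, and in the stomach they lie in the lamina propria and in the muscle wall. Their survival depends on the receptor for colony stimulating factor 1, encoded by Csf1r. They bind cargo through scavenger receptors (Msr1, Cd163, Cd68), a mannose-binding lectin (Mrc1) and Fc receptors for antibody (Fcgr1), and they are a main source of C1q, the molecule that starts the classical complement pathway. None of the 9 genes is specific to macrophages in every setting: monocytes and dendritic cells share several of them, and Mrc1 is also made by lymphatic endothelium. In bulk tissue, fewer cells of a type and less RNA per cell cannot be told apart.

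PU.1, the transcription factor that myeloid cells depend on, and its ETS relatives bind a GGAA core, and the stretches of promoter that hold such a motif are shown because 8 of the 9 members rose together at D80. RefSeq promoter windows on GRCm38.p6, 250 bases before the annotated start, were found for 6 of the 9 genes (Cd68, Fcgr1, Mrc1, Cd163, C1qb and C1qc), and not for Csf1r, Msr1 and C1qa. The letters AGGAAGT, searched on both strands, occurred in 4 of these 6 windows and in 7.69% of all 32851 windows of that length. Positions count from the RefSeq start, which for Mrc1, C1qb and C1qc is not the start of the gene spans given further on. For Mrc1 and C1qc the RefSeq start lies inside that span. The 4 matches are printed 5′ to 3′ on the strand of the gene, where each reads ACTTCCT. Capitals mark that match, and in Fcgr1 also the letters TTCCCAGAA, a match to the interferon-gamma activated site motif TTCNNNGAA, which 7.02% of all windows hold.
Mrc1, chr2:14229173-14229239, plus strand, match at -211 to -205 from the start: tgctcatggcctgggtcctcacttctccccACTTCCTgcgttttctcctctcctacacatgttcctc
Fcgr1, chr3:96293994-96294108, minus strand, matches at -109 to -101 and at -61 to -55: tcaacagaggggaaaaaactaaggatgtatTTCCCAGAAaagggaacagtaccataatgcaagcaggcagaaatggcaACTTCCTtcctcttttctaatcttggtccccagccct
C1qb, chr4:136886217-136886283, minus strand, match at -53 to -47: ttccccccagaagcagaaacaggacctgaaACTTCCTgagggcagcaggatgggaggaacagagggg
C1qc, chr4:136893073-136893139, minus strand, match at -195 to -189: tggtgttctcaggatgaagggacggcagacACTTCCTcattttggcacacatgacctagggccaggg
The window of Cd163 and that of Cd68 held none of the motifs searched. The interferon-stimulated response element and the MAF half-site TGCTGAC were in 0 of the 6 windows, against 2.98% and 3.81% of all windows. These are matches of letters, and binding was not measured. Any part of these motifs in the levels of the members was not tested.

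Total counts per library ran from 20121600 to 27633715, so that 3 counts are worth 0.109 to 0.149 CPM, the unit of counts scaled to a common library total. These floors cover counting error only. The libraries were not matched for sex or for neighbouring tissue. Xist and Y-linked counts were of the male type in all 3 D60 wild-type libraries and in D80 transgenic replicate 1, and of the female type in the other 8. At D60, genotype and sex therefore cannot be told apart, and neither can age and sex within the wild type. In D80 wild-type replicate 3, 10 genes of duodenal enterocytes summed to 11100 CPM, where replicates 1 and 2 held 649 and 2720. In D80 transgenic replicate 1, 10 genes of pancreatic acini summed to 4310 CPM, where replicates 2 and 3 held 1010 and 861. In the D80 transgenic libraries 10 smooth muscle genes summed to between 2730 and 2850 CPM, against 10900 to 18200 in D80 wild type, and 10 pyloric epithelium genes to between 41300 and 56500 CPM, against 118000 to 156000.

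All 9 members stood in the same order of group means, lowest in D60 wild type, then D80 wild type, then D60 transgenic, and highest in D80 transgenic. The middle pair, D80 wild type and D60 transgenic, overlapped for every member, so those neighbours did not differ beyond their spread. Levels below are CPM with TMM scaling (trimmed mean of M-values), and group values are mean ± SD with n = 3.

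**Figure D1:**
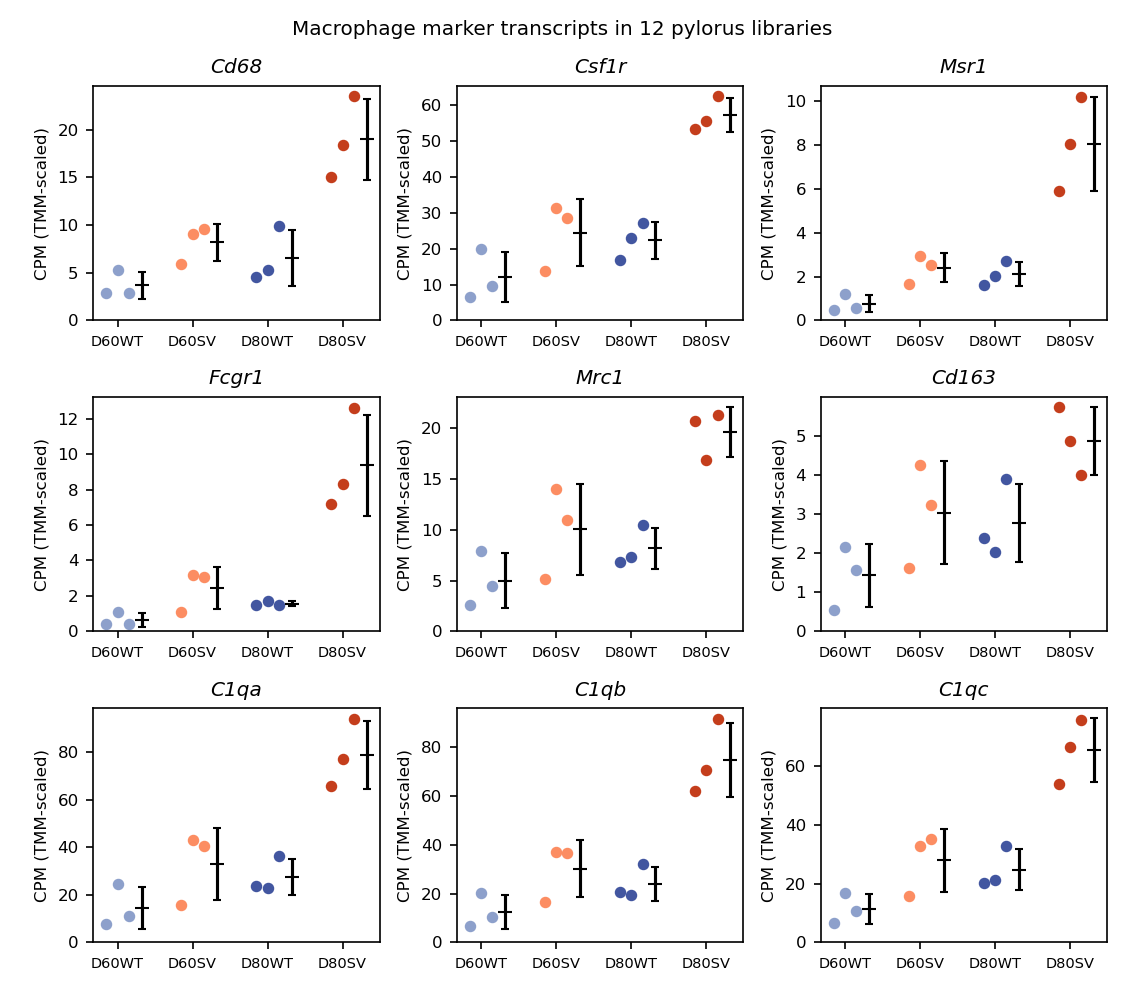
CPM of each of the 9 macrophage marker genes in the 12 libraries, with 1 point per library and a bar at each group mean. In every panel the 3 D80 transgenic libraries lie above all 3 of the D80 wild type, while the genotypes overlap at D60 for 6 of the 9 genes.

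Cd68 (chromosome 11, 69664213 to 69666153 in GRCm38), a heavily glycosylated protein of late endosomes and lysosomes, is the usual stain for macrophages in tissue sections. Its level was 2.84, 5.28 and 2.9 CPM in the 3 D60 wild-type libraries and 5.94, 9.04 and 9.54 CPM in the D60 transgenic libraries. It was 4.55, 5.25 and 9.92 CPM in D80 wild type and 15, 18.4 and 23.5 CPM in D80 transgenic libraries. At both ages the lowest transgenic library was above the highest wild-type library, narrowly at D60. The highest D80 wild-type library was replicate 3, the one with the most duodenal transcripts.

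Csf1r, the receptor for the growth factors CSF1 and IL-34, is on chromosome 18, where its gene overlaps Hmgxb3 on the opposite strand and the microRNA gene Mir6983 on its own strand. The strand setting of the counting is not given in the sources used here, so reads from these overlaps may be included. Csf1r was at 6.61, 19.9 and 9.57 CPM in D60 wild type and at 13.8, 31.2 and 28.4 CPM in D60 transgenic libraries. At D80 it was at 16.9, 23 and 27.1 CPM in wild-type and at 53.4, 55.6 and 62.4 CPM in transgenic libraries. The D60 groups overlapped through wild-type replicate 2 and transgenic replicate 1, while the D80 groups were wide apart.

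Msr1 (chromosome 8, 39581685 to 39642673), the class A scavenger receptor that takes up modified lipoproteins, was the scarcest member per exonic length in both wild-type groups. It was at 0.494, 1.22 and 0.571 CPM in D60 wild type, from 8, 26 and 12 counts, and at 1.67, 2.96 and 2.55 CPM in D60 transgenic libraries. At D80 the values were 1.63, 2.03 and 2.69 CPM in wild-type and 5.89, 8.04 and 10.2 CPM in transgenic libraries. The genotypes did not overlap at either age.

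Fcgr1 (chromosome 3, 96282909 to 96293969) encodes the high-affinity receptor for IgG, a gene known to be induced by interferon. Its level was 0.432, 1.08 and 0.428 CPM in D60 wild type, from 7, 23 and 9 counts, and 1.1, 3.17 and 3.06 CPM in D60 transgenic libraries. In D80 wild type the 3 libraries were close, at 1.5, 1.72 and 1.47 CPM, and in D80 transgenic libraries the gene was at 7.18, 8.33 and 12.6 CPM. The genotypes were separate at both ages, though at D60 transgenic replicate 1 was just above wild-type replicate 2.

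Mrc1 (chromosome 2, 14229392 to 14332057), the mannose receptor CD206, and the haemoglobin scavenger receptor Cd163 (chromosome 6, 124304656 to 124330527) are commonly used to mark tissue-resident and alternatively activated macrophages. Mrc1 was at 2.59, 7.91 and 4.47 CPM in D60 wild type and at 5.17, 14 and 10.9 CPM in D60 transgenic libraries. At D80 it was at 6.79, 7.28 and 10.5 CPM in wild-type and at 20.7, 16.8 and 21.3 CPM in transgenic libraries. The Mrc1 gene hosts the microRNA gene Mir511 on its own strand. Cd163 was at 0.556, 2.17 and 1.57 CPM in D60 wild type and at 1.63, 4.25 and 3.24 CPM in D60 transgenic libraries. Its D80 values were 2.4, 2.03 and 3.9 CPM in wild-type and 5.74, 4.87 and 4 CPM in transgenic libraries. The D80 groups of Cd163 almost touched, and D80 transgenic replicate 3, the highest library for most members, was the lowest of its group for this gene.

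C1qa, C1qb and C1qc encode the 3 chains that assemble into C1q. They lie side by side on chromosome 4 on the minus strand, within 18675 bases that hold no other annotated gene (C1qa 136895917 to 136898803, C1qc 136889804 to 136893065, C1qb 136880129 to 136886187). C1qa was at 7.78, 24.4 and 11.3 CPM in D60 wild type and at 15.7, 43 and 40.7 CPM in D60 transgenic libraries. It was at 23.7, 22.9 and 36.3 CPM in D80 wild type and at 65.7, 77.1 and 94.1 CPM in D80 transgenic libraries. The other 2 chains had a like pattern. C1qb averaged 12.4 ± 6.98 CPM in D60 wild type, 30.2 ± 11.8 CPM in D60 transgenic, 24 ± 6.97 CPM in D80 wild type and 74.8 ± 15.3 CPM in D80 transgenic libraries. C1qc averaged 11.4 ± 5.17, 28 ± 10.7, 24.9 ± 7.1 and 65.4 ± 10.9 CPM in the same 4 groups. For all 3 chains the D60 genotypes overlapped and the D80 genotypes did not.

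Divided by exonic length, the C1q chains were the most abundant of the 9 transcripts. In D80 transgenic libraries C1qa stood at 75.9 ± 13.7 CPM per kilobase and C1qb at 68.7 ± 14.0, a difference within the spread, followed by C1qc at 33.9 ± 5.67. Cd68 was next at 15.1 ± 3.4 CPM per kilobase and Csf1r at 9.89 ± 0.813. These 5 genes held the same ranks in all 4 groups. Below them the order was not fixed. Fcgr1 was the eighth of the 9 in D60 wild type, at 0.25 ± 0.145 CPM per kilobase, and the sixth in D80 transgenic libraries, at 3.62 ± 1.1, within the spread of Mrc1 at 3.08 ± 0.384. Cd163 was the seventh in D60 wild type, at 0.262 ± 0.149 CPM per kilobase, and the last in D80 transgenic libraries, at 0.892 ± 0.159.

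At D60, Msr1 and Fcgr1 were higher in transgenic pylorus and the other 7 members did not pass the test. Msr1 was 3.08-fold higher (log2 fold change 1.62, SE 0.39, adjusted p = 0.04) and Fcgr1 3.69-fold higher (1.89, SE 0.47, adjusted p = 0.046) with edgeR's quasi-likelihood test adjusted over all 15369 genes. Over all genes, 3.9% passed in either direction and 3.66% as higher. The log2 fold changes of the other 7 ran from 0.99 for Mrc1 to 1.29 for C1qc, with adjusted p from 0.08 to 0.32. The median over the 9 was 1.19, beside a median of 0 over all genes tested. In 3 of the 9, Cd68, Msr1 and Fcgr1, all 3 transgenic libraries were above all 3 wild-type libraries, as they were in 12.2% of all genes.

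The D60 calls rested on few libraries and on the fit. With sex as a covariate, a term that rested on the 1 male-type and 2 female-type D80 transgenic libraries, Msr1 was at 0.99 (SE 0.61) and Fcgr1 at 1.34 (SE 0.75), each with adjusted p = 1, and no member was called. Both genes fell short when a single library was left out, if that was replicate 1 or 3 of the D60 wild type, replicate 2 of the D80 wild type, or replicate 2 or 3 of either transgenic group. Fcgr1 alone fell short without replicate 1 of the D80 transgenic group or replicate 3 of the D80 wild type, and in the latter case Cd68 passed. Without D60 wild-type replicate 2, the library of its group with the highest level of every member, 6 passed (Csf1r, Msr1, Fcgr1, C1qa, C1qb and C1qc). Without D60 transgenic replicate 1, the lowest of its group for every member, 4 passed (Msr1, Fcgr1, C1qb and C1qc).

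At D80, 8 of the 9 members were higher in transgenic pylorus, and Cd163 did not pass. Fcgr1 had the greatest rise, from 1.57 ± 0.135 to 9.36 ± 2.84 CPM, which is 5.97-fold (log2 fold change 2.58, SE 0.43, adjusted p = 8e-04). Msr1 rose 3.79-fold, from 2.11 ± 0.536 to 8.03 ± 2.14 CPM (1.92, SE 0.36, adjusted p = 0.0015). C1qb rose 3.11-fold (1.64, SE 0.39, adjusted p = 0.0067), Cd68 2.89-fold (1.53, SE 0.34, adjusted p = 0.0044), C1qa 2.86-fold (1.52, SE 0.43, adjusted p = 0.015) and C1qc 2.63-fold (1.40, SE 0.35, adjusted p = 0.0087). Csf1r rose 2.56-fold, from 22.3 ± 5.1 to 57.1 ± 4.71 CPM (1.35, SE 0.37, adjusted p = 0.013), and Mrc1 2.39-fold, from 8.2 ± 2.03 to 19.6 ± 2.46 CPM (1.26, SE 0.40, adjusted p = 0.025).

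Cd163 averaged 2.78 ± 0.991 CPM in D80 wild-type and 4.87 ± 0.87 CPM in D80 transgenic libraries. Its log2 fold change was 0.81 with a 95% interval of -0.15 to 1.77 (adjusted p = 0.16), an interval that includes the rises measured for Csf1r, Mrc1, Cd68 and the C1q chains and stops short of those of Msr1 and Fcgr1. All 9 members, Cd163 included, had every D80 transgenic library above every D80 wild-type library, a separation seen in 24.4% of all genes.

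The background at D80 was high: 41.3% of all genes tested passed in either direction and 19.4% as higher in transgenic pylorus, 2974 higher against 3380 lower. Without a composition factor the split over all genes was 5104 higher against 1001 lower, and 3571 against 2093 with upper-quartile factors. The median log2 fold change was 1.52 over the 9 members and -0.07 over all genes. Among the 5 D80 libraries of the female type, that is without D80 transgenic replicate 1, 7 members passed and Mrc1 was at 1.21 (SE 0.45, adjusted p = 0.057). With sex as a covariate Mrc1 was also lost (adjusted p = 0.056), as it was when replicate 1 or 2 of the D80 wild type or replicate 3 of the D80 transgenic group was left out (adjusted p = 0.055 to 0.077). C1qa was lost when replicate 2 of the D80 wild type was left out (adjusted p = 0.055).

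**Figure D2:**
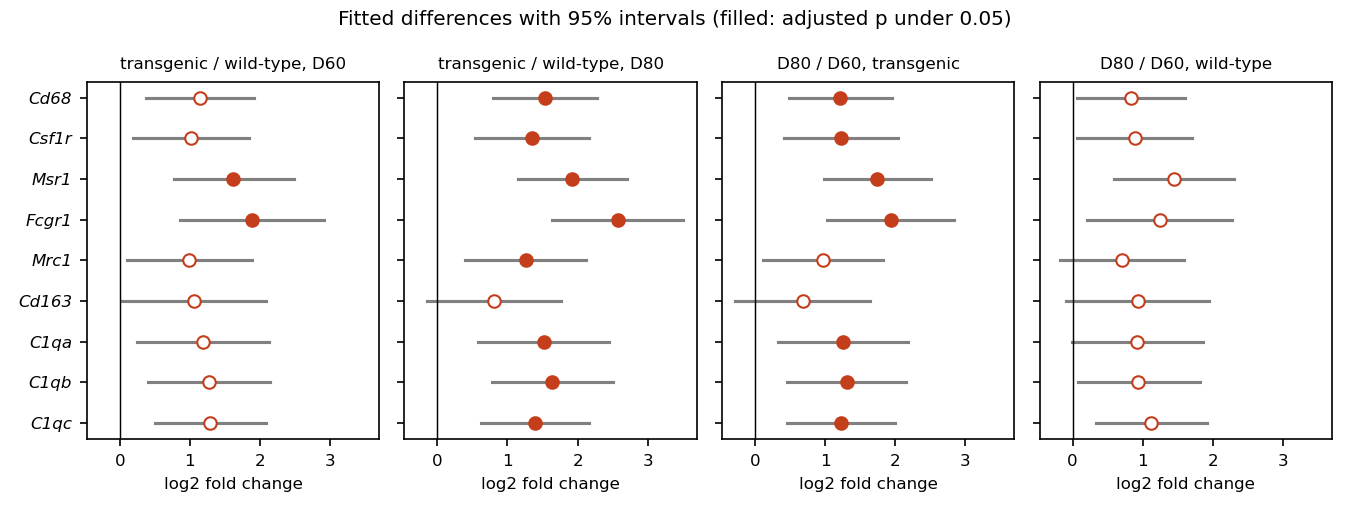
Log2 fold change of each member in the comparison of genotypes at D60 and at D80 and of ages within each genotype, with the 95% interval from the edgeR fit as bars. Filled points passed an adjusted p of 0.05: 2 members at D60, 8 at D80, 7 between ages in transgenic mice and 0 between ages in wild-type mice.

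Between D60 and D80 in transgenic mice, 7 of the 9 members rose, beside 35.7% of all genes called in either direction and 17.7% called higher. Fcgr1 rose 3.83-fold (log2 fold change 1.94, SE 0.41, adjusted p = 0.0047) and Msr1 3.35-fold (1.74, SE 0.35, adjusted p = 0.0035). Cd68, Csf1r and the C1q chains had log2 fold changes of 1.21 to 1.31, with adjusted p of 0.016 to 0.038. Mrc1 was at 0.97 (SE 0.39, adjusted p = 0.073) and Cd163 at 0.68 (SE 0.44, adjusted p = 0.25), and Cd163 was the member whose ages overlapped. Mrc1 passed with DESeq2 (adjusted p = 0.03), limma-voom (adjusted p = 0.021), only the groups compared (adjusted p = 0.039), no composition factor (adjusted p = 0.03), a replicate block (adjusted p = 0.038), and without replicate 1 or 2 of the D60 wild type or replicate 2 of the D60 transgenic group (adjusted p = 0.035 to 0.047). C1qa fell short with sex as a covariate (adjusted p = 0.051) and without replicate 3 of the D60 transgenic group (adjusted p = 0.061). In the other 8 every D80 library was above every D60 library, as in 30.6% of all genes. The count of 7 fell to 2 without D60 transgenic replicate 1 or without D80 transgenic replicate 3 (Msr1 and Fcgr1) and to 3 without D80 transgenic replicate 2 (those and Cd68). This comparison shares the D80 transgenic libraries with that of genotypes at D80.

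In wild-type mice 0 of the 9 members and 0% of all genes passed between ages with edgeR, while 1925 of the 15369 genes had an unadjusted p under 0.05. Log2 fold changes, D80 over D60, ran from 0.71 for Mrc1 to 1.44 for Msr1, with a median of 0.93 beside 0.04 over all genes, and 6 members had an unadjusted p under 0.05. With DESeq2, 254 genes passed and among them 1 member, Msr1, at 1.42 (SE 0.41, adjusted p = 0.041), and with limma-voom 0 genes did. All 3 D80 libraries were above all 3 D60 libraries for Msr1, Fcgr1 and C1qc, as for 7.06% of all genes. Age and sex coincided in these 6 libraries.

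The interaction of genotype and age, which asks whether the genotype difference was greater at D80 than at D60, was past the threshold for 0 of the 9 members, beside 5% of all genes. None had an unadjusted p under 0.05, and DESeq2 and limma-voom also called 0 members. The estimates ran from -0.25 for Cd163 to 0.69 for Fcgr1 on the log2 scale. The intervals were wide: that of Fcgr1 was -0.69 to 2.07 and that of Cd68 -0.67 to 1.43. The genotype effects are therefore not shown to differ between D60, with 2 called members, and D80, with 8.

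Ratios of 2 genes within a library do not depend on the scaling between libraries, and 12 were tested with an exact two-sided permutation of genotype within age. The smallest p this test can give is 0.005. Of the 12, 3 had an unadjusted p under 0.05 and 0 passed after adjustment over the 12. A single ratio at that smallest p is adjusted to 0.06, so none could pass unless other ratios had p near 0.005 too. The 0 therefore says little about any 1 ratio. Msr1 relative to Cd68 was at -2.45, -2.09 and -2.3 in the D60 wild-type libraries and -1.82, -1.61 and -1.89 in the D60 transgenic libraries on the log2 scale, without overlap. At D80 it was -1.47, -1.36 and -1.88 in wild-type and -1.35, -1.2 and -1.21 in transgenic libraries, again without overlap, by a narrow margin. Averaged over ages the transgenic ratio was 0.41 higher (exact permutation p = 0.005, adjusted p = 0.06). Within the wild type its mean was -2.28 in the male-type D60 libraries and -1.57 in the female-type D80 libraries. For all 12 ratios the D60 part of the genotype difference cannot be told apart from one of sex.

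Fcgr1 relative to Cd68 was at -2.63, -2.26 and -2.69 in D60 wild type and -2.41, -1.51 and -1.63 in D60 transgenic libraries on the log2 scale. At D80 it was -1.58, -1.6 and -2.73 in wild-type and -1.06, -1.14 and -0.9 in transgenic libraries. The mean difference was 0.81 (exact permutation p = 0.01, adjusted p = 0.06), with overlap at D60 only. Without D60 wild-type replicate 2 the differences of Msr1 and Fcgr1 to Cd68 and that of C1qc to C1qb passed (adjusted p = 0.04), and without D60 transgenic replicate 1 the first 2 passed (adjusted p = 0.03).

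For the other members the ratios to Cd68 did not pass either. C1qa relative to Cd68 differed by 0 between genotypes (exact permutation p = 0.98), C1qc by -0.02 and C1qb by 0.11 on the log2 scale. Csf1r relative to Cd68 differed by -0.15 and Mrc1 by -0.23. The spread of these ratios between libraries of a group was 0.06 to 0.45 as SD. Cd163 relative to Cd68 was 0.02 lower in transgenic libraries at D60 and 0.74 lower at D80, and the mean of -0.38 did not pass (exact permutation p = 0.24, adjusted p = 0.46). The 3 C1q chains were nearest to equal: C1qa over C1qb was between 0.944 and 1.21 in all 12 libraries, with a mean log2 difference of -0.12 (exact permutation p = 0.035, adjusted p = 0.14). Cd68 relative to Ptprc, the pan-leukocyte surface protein CD45, was 0.32 lower in transgenic libraries on the log2 scale (exact permutation p = 0.2, adjusted p = 0.46), which gives no rise of Cd68 over this leukocyte gene.

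**Figure D3:**
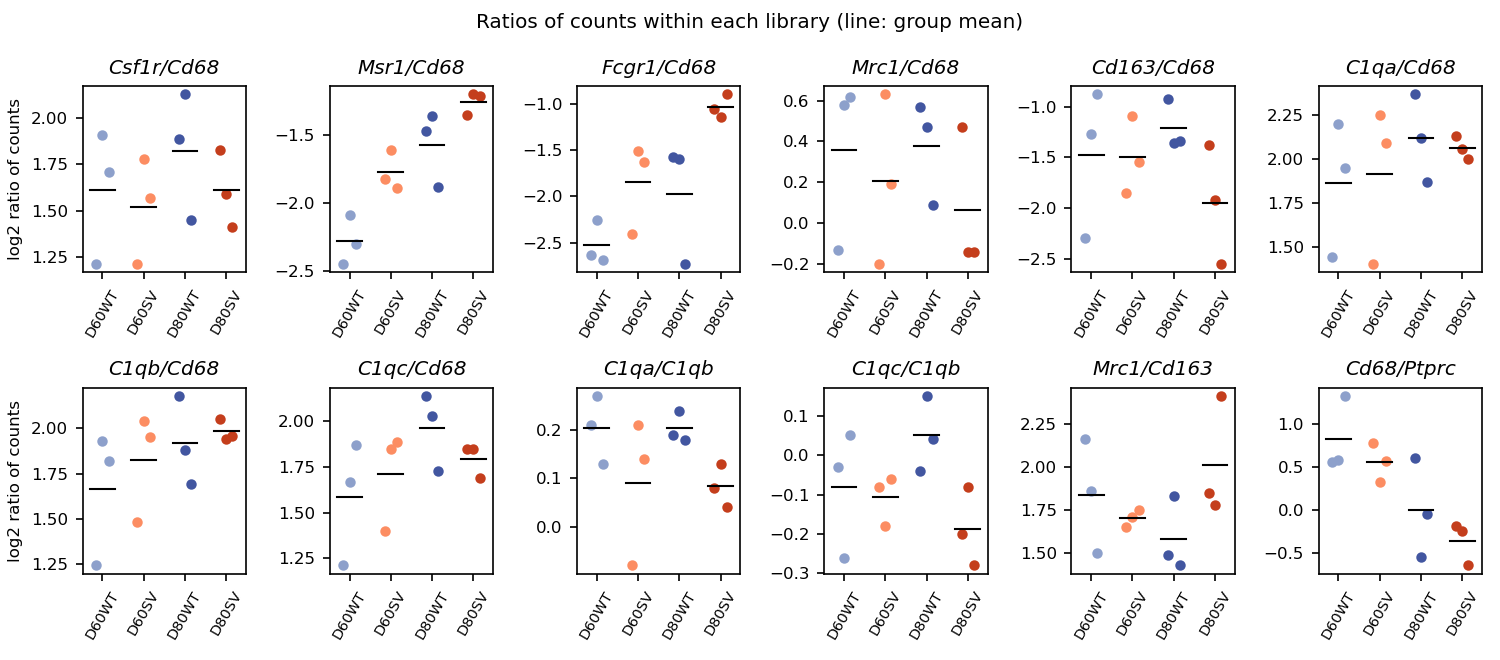
Log2 ratio of counts of 2 genes in each of the 12 libraries, with 1 point per library and a bar at each group mean. Msr1 over Cd68 is higher in the transgenic than in the wild-type libraries at both ages, and C1qa over C1qb lies in a narrow band near 0 in all groups.

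Across the 12 libraries the profiles of the members were compared by the root mean square difference of centred log2 CPM, where 0 is an identical profile. This is a description over libraries that share genotype and age. C1qa and C1qb were the nearest pair, at 0.094, and Fcgr1 and Cd163 the farthest, at 0.865. The mean profile of the 9 was lowest in D60 wild-type replicate 1, at -1.9, and highest in D80 transgenic replicate 3, at 1.6. Among 11469 other genes with a mean of at least 5 CPM, the one nearest to that mean profile was Lyz2, the lysozyme of macrophages and other myeloid cells, at 0.106. Lyz2 was at 21.4, 60.5 and 36.2 CPM in D60 wild type, 47.2, 115 and 112 CPM in D60 transgenic, 59.9, 59.5 and 98.7 CPM in D80 wild type and 176, 182 and 252 CPM in D80 transgenic libraries. Next were Pld4 at 0.191, Fam105a at 0.198, the leukocyte lysosomal protein gene Laptm5 at 0.207, and Emr1, which encodes the macrophage surface protein F4/80, at 0.214.

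Lyz2 was also the gene nearest to Csf1r, Mrc1, C1qa, C1qb and C1qc taken singly. Msr1 was nearest to the integrin gene Itgax, at 0.191, Fcgr1 to the lectin receptor gene Clec4n, at 0.336, Cd163 to F13a1, the coagulation factor XIII subunit made by monocytes and resident macrophages, at 0.284, and Cd68 to Lhfpl2, at 0.187. Fcgr1 and Cd163, which stood farthest from the mean of the 9 at 0.485 and 0.411, also had the most distant nearest genes.

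Other genes of macrophages and of the pathways of the 9 members are described by lists, with counts and medians. Cd36, Cd59a, Cfb, Fcgrt, Sfpi1, Tgfb1, Arg1, Chi3l3, Pecam1, Mmrn1, Cd79b and Alb are outside the rule for named genes. They were named after their values were seen. Of 21 tested genes of other macrophage markers, 11 were higher and 1 lower in D80 transgenic pylorus, with a median log2 fold change of 1.13. The 24 listed genes summed to 183, 315 and 1060 CPM in D80 wild-type and to 546, 600 and 549 CPM in D80 transgenic libraries, which overlapped. The overlap came through D80 wild-type replicate 3 alone, the library with the most duodenal transcripts. Among the list's genes named in this report, the highest in any D80 wild-type library was Lgmn, at 79.3 CPM. Most of the 1060 CPM was therefore from other genes of the list. Of the lists that follow, the D80 sums of Fc receptors and of scavenger and lectin receptors also overlapped, through the same library. Those of the CSF1 and GM-CSF axis, complement, lysosomal and activation genes were higher in every transgenic library. Emr1 rose from 6.16 ± 1.69 to 18.6 ± 1.82 CPM (log2 fold change 1.60, adjusted p = 0.0032). Ms4a7, a membrane protein of resident macrophages, rose from 3.05 ± 1.09 to 11.9 ± 2.18 CPM (1.96, adjusted p = 0.0027), and was the 1 gene of the list called at D60 (1.82, adjusted p = 0.037). That D60 call was lost with limma-voom (adjusted p = 0.18), with only the groups compared (adjusted p = 0.077), with sex as a covariate (adjusted p = 1) and in 9 of the 12 fits without 1 library, in which the list's count was 0 to 3. Trem2, a lipid-sensing receptor, rose from 0.921 ± 0.539 to 4.89 ± 1.07 CPM (2.40, adjusted p = 0.012), and the lipopolysaccharide co-receptor gene Cd14 from 10.6 ± 3.79 to 28.7 ± 10.2 CPM (1.44, adjusted p = 0.0023).

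Some markers of resident macrophages did not follow. Timd4, a receptor for phosphatidylserine on long-lived resident cells, fell from 0.754 ± 0.0618 to 0.335 ± 0.0663 CPM at D80 (log2 fold change -1.16, adjusted p = 0.027), a call lost with DESeq2 (adjusted p = 0.052), with sex as a covariate, under upper-quartile or no composition factors, and when replicate 2 or 3 of the D80 wild type or any D80 transgenic library was left out. Lyve1, which lymphatic endothelium also makes, was at 16.4 ± 2.41 CPM in wild-type and 10.6 ± 1.09 CPM in transgenic libraries at D80 (-0.62, adjusted p = 0.05), just short of the threshold. It passed with DESeq2 (adjusted p = 0.04), limma-voom (adjusted p = 0.041), only the groups compared (adjusted p = 0.045), a replicate block (adjusted p = 0.012), a filter of at least 10 counts (adjusted p just under 0.05), and in 4 of the 12 fits without 1 library (adjusted p = 0.03 to 0.045). The count of higher genes in the list was 7 in place of 11 when replicate 2 of the D80 wild type was left out.

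The ligands of the receptor Csf1r did not pass the test. Csf1 was at 16.1 ± 1.46 CPM in D80 wild-type and 19.2 ± 1.84 CPM in D80 transgenic libraries (log2 fold change 0.25, adjusted p = 0.49), and Il34 at 6.43 ± 2.21 and 7.86 ± 0.702 CPM (0.29, adjusted p = 0.53). In the list of the CSF1 and GM-CSF axis 7 of 10 genes were higher at D80, with a median of 1.77. Csf2rb2, a beta chain of the IL-3 receptor, rose from 2.1 ± 0.499 to 15 ± 4.53 CPM (2.84, adjusted p = 0.00015). Csf2rb, the shared beta chain of the GM-CSF, IL-3 and IL-5 receptors, rose from 3.96 ± 0.509 to 24.8 ± 10.9 CPM (2.64, adjusted p = 8e-04). Sfpi1, the older symbol of the gene for PU.1, was also higher (1.98, adjusted p = 0.0083). At D60 the smallest adjusted p in the list was 0.053, for Csf2rb2.

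The Fc receptors related to Fcgr1 rose with it. Of 5 tested, 4 were higher at D80, with a median log2 fold change of 2.05. The inhibitory receptor gene Fcgr2b rose from 4.75 ± 0.334 to 21.9 ± 5.83 CPM (2.20, adjusted p = 0.0014), Fcgr3 from 6.69 ± 1 to 27.7 ± 8.51 CPM (2.05, adjusted p = 0.0017) and Fcgr4 from 1.37 ± 0.623 to 7.3 ± 2.33 CPM (2.42, adjusted p = 0.002). The remaining 1, Fcgrt, encodes the neonatal Fc receptor, which epithelium also makes, and was at -0.06 (adjusted p = 0.89).

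Among other scavenger and lectin receptors, the family of Msr1, Cd163 and Mrc1, 6 of 14 were higher and 1, Cd36, lower at D80, with a median of 0.37. Clec4n, the receptor dectin-2 for fungal mannans, rose from 2.32 ± 0.409 to 15.1 ± 3.77 CPM (log2 fold change 2.70, adjusted p = 0.0017). Stab1, an endocytic receptor of macrophages and sinusoidal endothelium, rose from 16.9 ± 3.84 to 41 ± 3.97 CPM (1.27, adjusted p = 0.0022). Of 9 endothelial and lymphatic genes 4 were higher at D80 (Prox1, Pdpn, Cdh5 and Pecam1, with log2 fold changes of 3.46, 1.65, 1.04 and 0.73) and 1 lower (Mmrn1, at -0.91), with a median of 0.52. Without 1 library 3 or 4 were higher and 0 to 2 lower. Prox1, a transcription factor of lymphatic endothelium that some epithelial and neural cells also make, rose from 1.59 ± 0.599 to 17.6 ± 4.08 CPM (adjusted p = 6.6e-06). The list summed to 139 to 180 CPM in D80 wild-type and 222 to 262 CPM in D80 transgenic libraries, and its part in the levels of Mrc1, Stab1 and Lyve1 was not tested. Of 18 lysosomal and antigen-processing enzymes 8 were higher, with a median of only 0.30. The cathepsin gene Ctsl led them, from 113 ± 16 to 506 ± 125 CPM (2.16, adjusted p = 1e-05). That count was 3 without D80 wild-type replicate 2, 4 without D80 transgenic replicate 1, 5 without D80 transgenic replicate 2 or 3, and 15 without a composition factor.

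Complement genes other than C1q were higher for 11 of 17 and lower for 1, Cd59a, at D80, with a median of 1.60, and 2 of them were already higher at D60, C4b and Cfb. C4b, the complement component that C1 cleaves, rose from 11.4 ± 2.36 to 56.6 ± 25.2 CPM at D60 (log2 fold change 2.31, adjusted p = 0.0012, and 0.15 with sex as a covariate) and from 26.9 ± 7.18 to 158 ± 12.1 CPM at D80 (2.55, adjusted p = 0.00011). Serping1, the C1 inhibitor, rose from 80.6 ± 4.93 to 464 ± 135 CPM at D80 (2.52, adjusted p = 0.00024). Itgam, a chain of the phagocytic complement receptor 3, rose from 5.04 ± 1.79 to 20.2 ± 7.23 CPM (2, adjusted p = 0.0064). C3 did not pass, at 158 ± 151 and 425 ± 122 CPM (1.43, adjusted p = 0.075). It did pass without replicate 3 of the D80 wild type (2.58, adjusted p = 0.0024), with limma-voom (adjusted p = 0.044), with upper-quartile (adjusted p = 0.049) or no composition factors (adjusted p = 0.022) and with a replicate block (adjusted p = 0.024).

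Genes used to describe macrophage activation were higher for 14 of 17 and lower for 1 at D80, with a median of 1.53, and they belonged to more than one described state. Il1b, an inflammatory cytokine gene, rose from 1.14 ± 0.162 to 45.4 ± 31.7 CPM (log2 fold change 5.31, adjusted p = 0.00019). Mmp12, macrophage elastase, rose from 2.16 ± 1.07 to 16.6 ± 3.43 CPM (2.94, adjusted p = 0.0012), and Tgfb1, which encodes an anti-inflammatory and profibrotic cytokine, was at 1.53 (adjusted p = 0.0012). Retnla, a marker of the response to IL-4, went the other way, from 6.21 ± 3.01 to 0.229 ± 0.145 CPM (-4.70, adjusted p = 0.00042). Chi3l3 and Arg1, also used as markers of that response, were higher (4.05, adjusted p = 0.0025, and 1.23, adjusted p = 0.035). The fall of Retnla was thus not shared by these markers. The count of higher genes was 9 without D80 transgenic replicate 2. Which cells made these transcripts was not tested, and most of the neutrophil genes described below were also higher at D80.

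**Figure D4:**
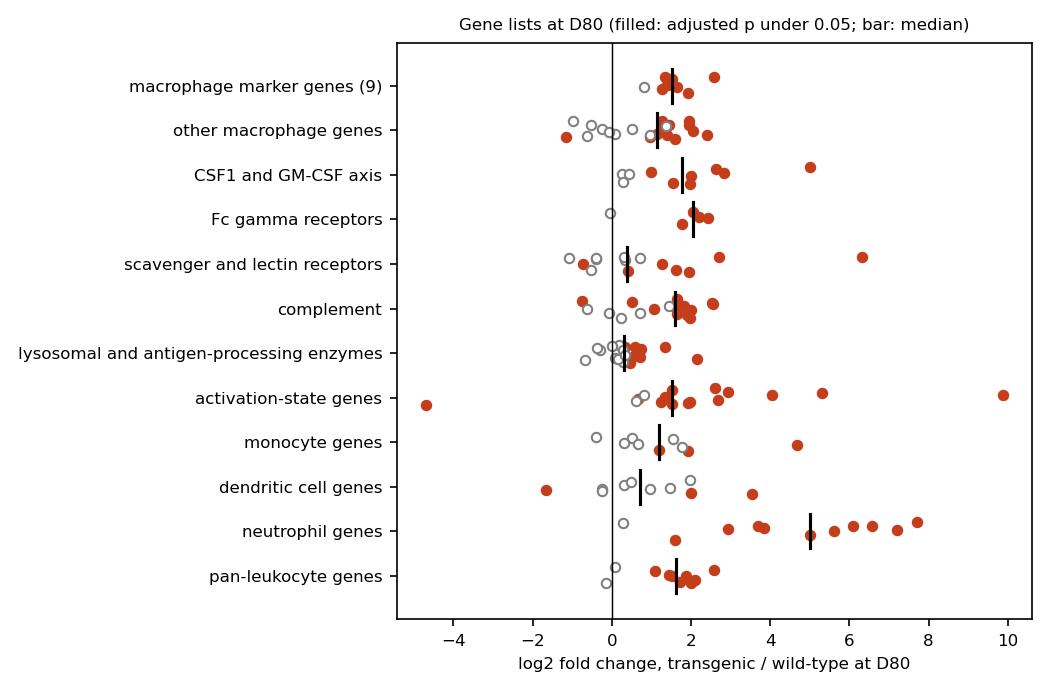
Log2 fold change, transgenic over wild type at D80, of the 9 macrophage marker genes and of each tested gene of 11 related lists, with 1 point per gene, filled where the adjusted p was under 0.05, and a bar at each median. The marker genes have a median of 1.52, the neutrophil genes of 5 and the lysosomal enzymes of 0.30.

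Counts for markers of other white cells at D80 are read beside the 19.4% of all genes called higher. Of 11 tested neutrophil genes 10 were higher (6 with limma-voom), with a median log2 fold change of 5, beside a median of 0.59 at D60. Their summed level was 70.3, 163 and 301 CPM in D80 transgenic libraries, 96, 42.1 and 21 CPM in D80 wild type, 14 to 33.6 CPM in D60 wild type and 25.9 to 29.9 CPM in D60 transgenic libraries, with 1 listed gene at 0 in each wild-type group. The D80 sums overlapped between genotypes. Of 9 monocyte genes 3 were higher, among them Ccr2 and Vcan, 1 when D80 transgenic replicate 3 was left out and 6 without a composition factor. Ccr2 was at 2.81 ± 1.3 and 10.7 ± 4.62 CPM (1.93, adjusted p = 0.024), a call lost when replicate 2 or 3 of either D80 group was left out (adjusted p = 0.051 to 0.087), and with a replicate block (1.78, adjusted p = 0.052). The summed level of the monocyte genes was 519 to 1390 CPM in D80 wild-type and 767 to 904 CPM in D80 transgenic libraries, within the wild-type range.

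Of 10 dendritic cell genes 2 were higher (Ccr7 and Siglech), a share near that of all genes, and 1 was lower (Dpp4). The higher count was 1 to 3 without 1 library and 4 without a composition factor. Siglech did not pass with only the groups compared (adjusted p = 0.059), with sex as a covariate (adjusted p = 0.061), or when replicate 1 or 3 of either D80 group or replicate 3 of the D60 transgenic group was left out (adjusted p = 0.052 to 0.12). The dendritic cell genes summed to 44.3, 84 and 99.9 CPM in D80 wild type. In D80 transgenic libraries they summed to 40.4, 35.5 and 30.3 CPM, below every wild-type library. Most of each sum was Dpp4, with a mean of 67.5 of 76 CPM in D80 wild type and 21.3 of 35.4 CPM in D80 transgenic libraries. The median log2 fold change of the list was 0.72, so the order of the sums describes Dpp4 and not the list. Of 9 T and B lymphocyte genes 4 were higher, among them Cd4, Ms4a1 and Cd79b, and 1 without D80 transgenic replicate 3. Their sums overlapped, at 29.3, 364 and 182 CPM in wild-type and 98.2, 71 and 159 CPM in transgenic libraries. The 10 pan-leukocyte genes, 8 of them higher with a median of 1.63, summed to 292, 336 and 490 CPM in D80 transgenic libraries and to 270, 210 and 239 CPM in D80 wild type. Their part in the levels of Csf1r, Fcgr1 and the other shared genes was not tested.

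Kupffer cells of the liver also carry several of the 9 genes. Their defining markers Clec4f, Cd5l and Vsig4 had too few counts to be tested, with 1, 21 and 33 counts over the 12 libraries together. Of the 5 liver and Kupffer genes that were tested, 2 were higher (Ttr and Ahsg) and 2 lower (Alb and Timd4) at D80. All 10 smooth muscle genes and 6 of 10 pyloric epithelium genes were lower at D80, with the summed levels given above, and their part in the members' rise was not tested.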

How the data were processed

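Total RNA of 12 pylorus libraries was extracted with a Qiagen kit and sequenced from Illumina TruSeq stranded mRNA libraries, per the labels' protocols. The deposited values used here are raw read counts for each gene symbol, and the authors' normalized table was not used. The submitters' processing notes name the build mm10 and the tools STAR 2.5.3a, HTSeq 0.9.1 and edgeR 3.16.5, with no roles. The annotation and strand setting were not given in the sources used here. Gene positions are from GENCODE M21 on GRCm38, which is mm10. Promoter positions count from RefSeq starts, which differ from the GENCODE starts for some members.

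Genes were kept by filterByExpr (15369, with 99.975% of counts), scaled by TMM (factors 0.805 to 1.3) and fitted with edgeR 4.0.16 (quasi-likelihood, R 4.3.3) with 1 coefficient for each of the 4 groups, which left 8 residual degrees of freedom. The biological coefficient of variation was 24.2%. The Benjamini-Hochberg adjustment ran over the 15369 genes, and an adjusted p under 0.05 was called. SE is the log2 fold change over the root of F. Log2 CPM used a prior count of 2 and ratios a pseudocount of 0.5. The likeness of profiles was taken over genes with a mean of at least 5 CPM.

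The members, lists and tests were chosen with earlier results of these data known. The rule for named genes took the 9 members, 10 fixed genes (Csf1, Il34, Adgre1 as Emr1, Cd14, Itgam, Ptprc, Trem2, Lyve1, Ccr2 and C3), up to 3 others per list with the smallest p in the D80 comparison of genotypes, and the genes nearest in profile. Of the list symbols, 5 were found under an older symbol and 2 not at all. Some genes of the lists are not reported here. Alternatives were RLE, upper-quartile or no composition factors, other filters, DESeq2 1.42.0, limma-voom (limma 3.58.1), only the groups compared, sex as a covariate, a replicate block, and leaving out libraries. In simulated data the fit recovered 50% of 2-fold and 77.8% of 4-fold changes planted at D60, and 45% and 85.9% at D80. The test of the interaction recovered only 11% of 2-fold and 62% of 4-fold changes planted in the D80 transgenic group.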

Additional observations from a re-analysis of the deposited data

Results flagged for a closer look

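In 3 genes of the related lists described here the genotype effect differed between D60 and D80 by the test of the interaction itself (edgeR's quasi-likelihood test, adjusted over all genes); none of the 9 macrophage marker genes did. For the resident-macrophage protease gene Lgmn the effect was 0.93 greater at D80 on the log2 scale (SE 0.19, adjusted p = 0.022), as the level was 64.3 ± 3.48 and 80.3 ± 12.2 CPM at D60 in wild-type and transgenic libraries and 72.2 ± 6.64 and 172 ± 23.3 CPM at D80. For the cathepsin gene Ctsl it was 1.41 greater (SE 0.27, adjusted p = 0.016), with 90 ± 12.2 and 151 ± 18.1 CPM at D60.

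Retnla had an interaction of -7.41 (SE 0.93, adjusted p = 0.0046), with opposite directions at the 2 ages. It was at 1.53 ± 0.517 CPM in D60 wild-type and 10.1 ± 6.51 CPM in D60 transgenic libraries (log2 fold change 2.71, adjusted p = 0.027), and at 6.21 ± 3.01 and 0.229 ± 0.145 CPM at D80. The D60 call was lost with limma-voom, with sex as a covariate and without any 1 of the D60 wild-type libraries or D60 transgenic replicate 2 or 3 (adjusted p = 0.057 to 0.49).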

How the results depend on the processing

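The number of members called at D60, 2, was 5 with DESeq2, 1 without a composition factor, 0 with limma-voom, with only the groups compared or with sex as a covariate, 1 without D80 wild-type replicate 3 and D80 transgenic replicate 1 together, and 0 to 6 without 1 library. The number at D80, 8, was 6 to 8 without 1 library, that between ages in transgenic mice, 7, was 2 to 8, that between ages in wild-type mice, 0, was 1 with DESeq2, and ratios called were 0 to 3. Genes called over all at D60, 599, were 992 with DESeq2, 85 with sex as a covariate and 378 to 736 without 1 library. Between ages in transgenic mice, 5490 in all, they were 3507 to 6594 without 1 library and 6921 with only the groups compared, and in wild-type mice 254 with DESeq2, 5 with only the groups compared, 1 with sex as a covariate, 7 without the pair of D80 libraries and 0 to 396 without 1 library. For the interaction, 768 in all, they were 1745 with DESeq2, 423 with limma-voom, 99 with sex as a covariate and 193 to 2419 without 1 library. Leaving out 1 library reversed interactions that had not passed: Csf1r from -0.24 to 0.69, Msr1 -0.23 to 0.58, Mrc1 -0.24 to 0.64, Cd163 -0.67 to 0.18, C1qa -0.28 to 0.69, C1qb -0.18 to 0.72 and C1qc -0.3 to 0.44, and the ratios to Cd68 of C1qa (-0.11 to 0.12) and C1qc (-0.11 to 0.06). Without a composition factor the Cd163 interaction was 0.09 and the D80 log2 fold change of Anpep, a duodenal list gene, 0.05; that setting moved the median of all genes at D80 from -0.07 to 0.34. The cause of these changes was not tested. Same-numbered libraries did not deviate together (18 pairs, mean r -0.004, from -0.344 to 0.393), and with the number as a replicate block C1qc passed at D60 (adjusted p = 0.021) and Mrc1 between ages in transgenic mice (adjusted p = 0.038), with 3, 8, 8, 0 and 0 members called in the 5 comparisons. Counts of 7 to 26 for Msr1 and Fcgr1 in D60 wild type limit their precision.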
